A study of Mus musculus with 6 samples.

Results

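The ERBB receptors and the ligands of the EGF family were represented by 10 genes of the 24214 features counted in each sample. They were chosen by symbol, as 3 receptors (Egfr, Erbb2 and Erbb3) and 7 ligands (Areg, Ereg, Btc, Epgn, Hbegf, Tgfa and Nrg1). The choice was made with earlier results of these data known. The data came from transfectants of an epithelial murine lung adenocarcinoma (LUAD) line, described in the labels as KP lung cancer cells of the C57BL/6 strain and grown in RPMI medium with fetal calf serum. These cells carried either a vector that expresses ZEB1 (393P_ZEB1) or the empty vector (393P_vector), and no other treatment is given. ZEB1 is a zinc finger repressor that drives the epithelial-to-mesenchymal transition (EMT), and the comparison asks which transcripts differ when it is added. Total RNA was sequenced in 3 samples per group. The labels do not say whether these came from separate transfections or cultures, so p-values measure the spread between these samples, which may be technical. Both groups derive from a single parental line, and an effect of the choice of transfectants cannot be told apart from that of ZEB1.

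As background, the ERBB receptors are tyrosine kinases of the plasma membrane that pair with each other when a ligand binds. EGFR binds the EGF-type ligands, ERBB3 binds neuregulins, has little kinase activity of its own and signals through its partners, and ERBB2 has no known ligand and acts as the preferred partner. The ligands are made as transmembrane precursors and are released by cell surface proteases called sheddases, and in epithelia such as the lung they control growth and repair.

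Total counts were between 54442450 and 79158012 per sample, and 3 counts, used as the floor of detection, equalled 0.0361 to 0.0561 CPM (counts per 1e+06, the library size scaled by edgeR's TMM factors). Zeb1 was at 21.5 ± 0.435 CPM (SD, n = 3) in 393P_vector and 51.7 ± 3.01 CPM in 393P_ZEB1 (log2 fold change 1.26), in the direction of the labels. Zeb1 lies on chromosome 18, whose 395 tested genes other than Hbegf had a median log2 fold change of 0.64 in the same direction. Zeb1 is among these genes. Of 6 epithelial markers 5 fell, with a summed level of 4629 to 5286 CPM in 393P_vector and 2746 to 3042 CPM in 393P_ZEB1. Epcam fell 92.7-fold, Cdh1 17.1-fold and Cldn4 337-fold, and the more abundant Krt8 and Krt18 fell 1.53-fold and 1.71-fold. Of 6 mesenchymal markers 6 rose, with Zeb1 itself and Cdh2 on chromosome 18 among them. The mesenchymal markers summed to 7615 to 8394 CPM in 393P_vector, above the epithelial ones, and to 10630 to 11910 CPM in 393P_ZEB1. Of 5 markers of the lung epithelial lineages, Nkx2-1, Sftpc, Sftpb and Scgb1a1 were under 1 CPM in all 6 samples. The other, Foxj1, was at 2.65, 2.75 and 2.97 CPM in 393P_vector and 0.206, 0.0900 and 0.262 CPM in 393P_ZEB1. Foxj1 fell (log2 fold change -3.89, edgeR adjusted p = 7.35e-05). The epithelial label thus rested mostly on general markers. Markers of haematopoietic, endothelial and fibroblast cells summed to at most 3.53, 2.37 and 2.69 CPM in any sample. 393P_vector replicate 3 stood apart, with 6.89% and 7.75% of tested genes at least 2-fold from replicates 1 and 2, while every other pair within a group had between 0.9% and 1.29%.

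All 10 genes passed the filter on low counts, and 8 of them changed in edgeR's quasi-likelihood test with Benjamini-Hochberg adjustment over 13892 genes (threshold 0.05). Egfr, Areg, Ereg, Btc and Hbegf rose in 393P_ZEB1, and Erbb3, Tgfa and Nrg1 fell. Across all tested genes 37.6% changed, 18.3% upwards and 19.3% downwards. The samples of the groups did not overlap for 8 of the 10 genes, against 52.8% of all tested genes. The median log2 fold change of the 10 genes was 0.49, and that of all tested genes was -0.02. Because the 10 genes were chosen with earlier results known, these comparisons only describe the set. When the test asked for a change larger than 1.5-fold, Areg, Ereg and Hbegf passed upwards and Erbb3 and Nrg1 downwards, and Egfr, Btc and Tgfa did not pass. Of all 13892 tested genes, 2199 passed that test, 1081 upwards and 1118 downwards. In bulk RNA, a lower level per cell and fewer cells that express a gene cannot be told apart.

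**Figure D1:**
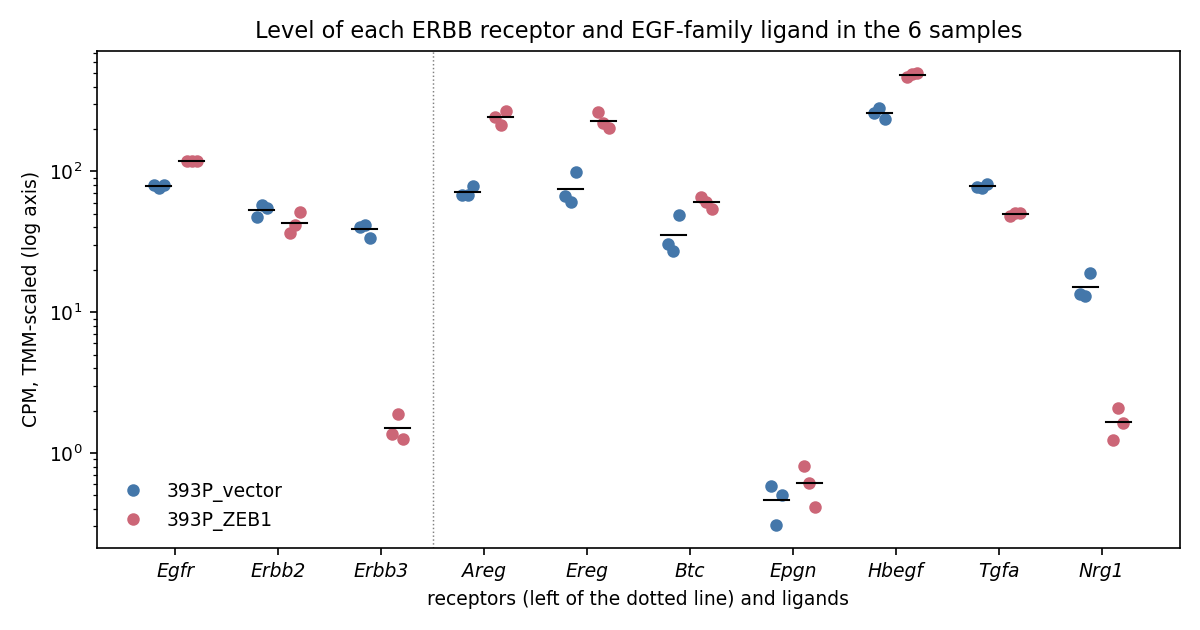
Level of the 3 receptors and 7 ligands in each sample, as CPM on a log axis. Each point is 1 of 3 samples of a group and each black line is the group mean. Erbb3 and Nrg1 lay far lower in 393P_ZEB1, Areg, Ereg and Hbegf lay higher, and the points of Erbb2 and Epgn overlapped.

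Among the receptors, Egfr was higher, Erbb3 was close to lost, and no change in Erbb2 was shown. Egfr (chromosome 11, 16752203 to 16913907, plus strand, GRCm38) encodes the receptor of most EGF-type ligands. It was at 79.8, 75.7 and 79.6 CPM in 393P_vector and at 119, 119 and 119 CPM in 393P_ZEB1. All 3 samples of 393P_ZEB1 were above those of 393P_vector, and the spread within each group was small, with a highest sample 1.05 and 1.00 times the lowest. Egfr rose 1.52-fold (log2 fold change 0.61, SE 0.09, edgeR adjusted p = 0.00136). All of its 29 exons had more than 10 reads in all 6 samples. Chromosome 11 as a whole was shifted upwards, with a median log2 fold change of 0.27 over its 1154 other tested genes and 0.39 over the 24 within 5 Mb of Egfr. Egfr was 0.34 above the chromosome median, and its change and that of the chromosome cannot be told apart.

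Erbb2 (chromosome 11, 98412484 to 98437716, plus strand), the ligandless partner receptor, was at 47.8, 58.1 and 54.6 CPM in 393P_vector and at 36.5, 41.9 and 51.1 CPM in 393P_ZEB1. ZEB1 replicate 3 lay above vector replicate 1, so the groups overlapped. The log2 fold change was -0.31 (95% interval -0.66 to 0.04, edgeR adjusted p = 0.147) and the exact two-sided permutation p was 0.2, where 3 samples against 3 can give no less than 0.1. Erbb2 differed by -0.58 on the log2 scale from the median of chromosome 11, which was above 0. Its 3′ end overlaps Mien1 on the opposite strand, and whether the counting used strand is not given in the sources used here. Mien1 had a log2 fold change of -0.40 with an SE of 0.24 and its groups overlapped as well.

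Erbb3 (chromosome 10, 128569368 to 128589501, minus strand), the neuregulin receptor, was at 40.6, 41.6 and 33.9 CPM in 393P_vector. It was at 1.36, 1.89 and 1.24 CPM in 393P_ZEB1, which rests on 73, 105 and 76 counts, against 2299, 2446 and 2816 in 393P_vector. The groups were separated by a wide gap, and the lowest vector sample was far above the highest ZEB1 sample. Erbb3 fell 25.8-fold (log2 fold change -4.69, SE 0.20, edgeR adjusted p = 2.74e-06). It had the 187th lowest log2 fold change of 13892 tested genes, and the 5th lowest on chromosome 10, whose other 675 tested genes had a median of -0.29. All 28 exons had more than 10 reads in each vector sample, whereas 0, 0 and 1 exons did in the ZEB1 samples. The fall was thus not limited to one end of the counted model. That model holds 0% of the 3′ UTR of Erbb3 in GENCODE M21, which was therefore not counted. Within the 5 Mb around Erbb3, the median of 83 other tested genes was -0.33, and 23 of them fell.

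Scaled by exon length, the 3 receptor transcripts of 393P_vector were of similar level, and those of 393P_ZEB1 were mostly Egfr. In 393P_vector, Egfr, Erbb2 and Erbb3 were at 12.2, 10.8 and 9.69 CPM per kilobase of exon, and the Erbb2 and Erbb3 samples overlapped. In 393P_ZEB1 the order was kept, at 18.6, 8.68 and 0.376 CPM per kilobase. As a share of the summed level of the 3 receptors, Egfr went from 37.5% ± 2.29 (SD, n = 3) to 67.4% ± 3.52, Erbb3 from 29.6% ± 2.64 to 1.36% ± 0.334, and Erbb2 from 32.9% ± 2.69 to 31.3% ± 3.67. The share of Erbb2 overlapped between the groups and those of Egfr and Erbb3 did not. The ratio of Egfr to Erbb3 per kilobase was 1.22, 1.13 and 1.46 in 393P_vector and 54.5, 39.2 and 59.7 in 393P_ZEB1. The receptors summed to 32.7 ± 1.09 CPM per kilobase in 393P_vector and 27.7 ± 1.47 in 393P_ZEB1.

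**Figure D2:**
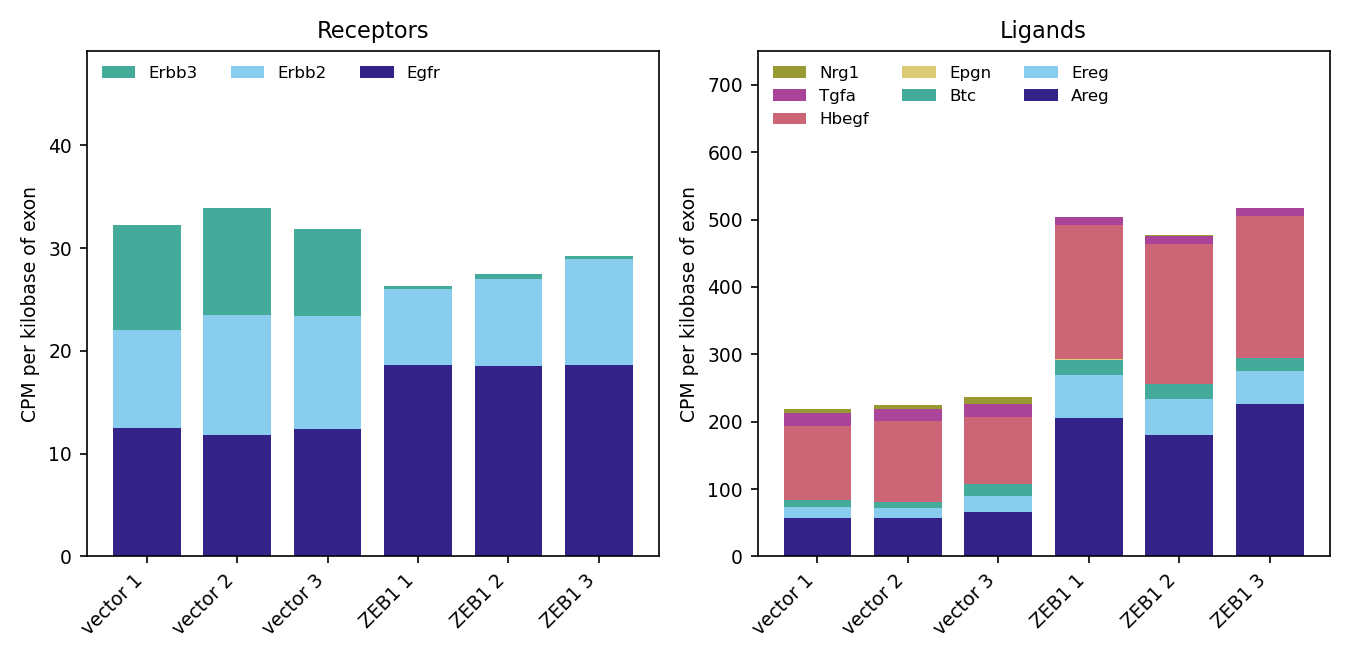
Level of the receptors (left) and of the ligands (right) in each sample, stacked, in CPM per kilobase of exon. Erbb3 makes up 26.6% to 31.6% of the receptor bars in 393P_vector and is barely visible in 393P_ZEB1, and the ligand bars are taller in all 3 ZEB1 samples, mostly through Areg and Hbegf.

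The ligands split by gene. Areg, Ereg and Hbegf rose most, Btc rose less and with less certainty, Tgfa and Nrg1 fell, and no change in Epgn, the lowest of the 7, was shown. Areg, Ereg, Btc and Epgn are neighbours on chromosome 5. Promoters of the 10 genes were searched for the E-box that ZEB1 is known to bind, since ZEB1 is the factor added, and the windows with a match are printed. The search used CACCTG and its reverse complement CAGGTG on both strands of 250 bases before to 50 bases after the RefSeq start site of each gene, in sequences of GRCm38.p6. Windows were held for 6 of the 10 genes (Egfr, Erbb2, Areg, Btc, Epgn and Tgfa), and Erbb3, Ereg, Hbegf and Nrg1 were not matched. Of these 6, 4 held the motif, compared with 20.2% of all 32851 promoters and 18.2% of the 12490 promoters of tested genes. Each window is printed on its gene's strand, 5′ to 3′, with the motif in capitals.
Areg, chr5:91139567-91139596, plus strand: ctataaaagcagCAGGTGctcgccgcaccc
Btc, chr5:91403087-91403116, minus strand: gaaatgaaccgtCAGGTGagacccagcagg
Epgn, chr5:91027267-91027289, plus strand: gcccaCAGGTGacaggaaacctg
Tgfa, chr6:86195013-86195042, plus strand: aagcccctagcaCAGGTGactggatcctga
Relative to the RefSeq start sites (91139599 for Areg, 91402994 for Btc, 91027517 for Epgn and 86195222 for Tgfa), the motif began at -20 in Areg, -110 in Btc, -245 in Epgn and -197 in Tgfa. For Areg and Tgfa these starts lie upstream of the counted intervals. Of these 4 genes 2 rose, 1 fell and 1 did not pass, and a match is a description of the letters, not a binding site.

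Areg (chromosome 5, 91139615 to 91148432, plus strand) encodes amphiregulin, a low-affinity ligand of EGFR. It was at 67.6, 68.3 and 78.8 CPM in 393P_vector and at 245, 215 and 270 CPM in 393P_ZEB1. The lowest ZEB1 sample was well above the highest vector sample. Areg rose 3.40-fold (log2 fold change 1.77, SE 0.12, edgeR adjusted p = 2.73e-05).

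Ereg (chromosome 5, 91074617 to 91093649, plus strand) encodes epiregulin, which binds EGFR and ERBB4. It was at 67.3, 60.2 and 98.7 CPM in 393P_vector and at 263, 222 and 202 CPM in 393P_ZEB1. The groups did not overlap, and vector replicate 3 was 1.55 times the mean of replicates 1 and 2. Ereg rose 3.04-fold (log2 fold change 1.60, SE 0.20, edgeR adjusted p = 0.000632). Without vector replicate 3 the log2 fold change was 1.85.

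Btc (chromosome 5, 91357261 to 91402994, minus strand) encodes betacellulin, which also binds EGFR and ERBB4. It was at 30.5, 27.2 and 48.9 CPM in 393P_vector and at 65.7, 61.0 and 54.1 CPM in 393P_ZEB1. The groups did not overlap, but vector replicate 3 was 1.70 times the mean of replicates 1 and 2 and came close to the lowest ZEB1 sample. Btc rose 1.69-fold (log2 fold change 0.76, SE 0.22, edgeR adjusted p = 0.0304). This call was not stable. With edgeR it was lost without vector replicate 1 or 2 (adjusted p = 0.0872 and 0.0705) and without ZEB1 replicate 1, 2 or 3 (adjusted p = 0.108, 0.0875 and 0.0586). Without vector replicate 3 the log2 fold change was 1.06 with an edgeR adjusted p of 1.65e-05, and with library size in place of the TMM factors the adjusted p was 0.0502. In vector replicate 3, the epithelial markers Epcam and Cdh1 were at 182 and 231 CPM, against 92.6 and 113 in replicate 1 and 92.2 and 143 in replicate 2. The remaining epithelial markers, Krt8, Krt18, Krt19 and Cldn4, were at 797, 2137, 1022 and 260 CPM in vector replicate 3. They were at 926, 2219, 1426 and 262 CPM in replicate 1 and at 958, 2436, 1368 and 288 CPM in replicate 2. The epithelial markers thus went in both directions in vector replicate 3. Any link to the level of Btc or Ereg in that sample was not tested. Of all tested genes, 14.3% were at least 1.5 times higher in vector replicate 3 than the mean of the other vector samples.

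Epgn (chromosome 5, 91027517 to 91035212, plus strand) encodes epigen, another EGFR ligand. It was at 0.583, 0.306 and 0.506 CPM in 393P_vector, from 33, 18 and 42 counts, and at 0.804, 0.612 and 0.409 CPM in 393P_ZEB1, from 43, 34 and 25 counts. The groups overlapped, and a change of the size estimated was within the error (log2 fold change 0.38, 95% interval -0.44 to 1.20, edgeR adjusted p = 0.434, exact permutation p = 0.4).

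These 4 genes lie within 375478 bases, with 39404 bases between Epgn and Ereg, 45965 between Ereg and Areg and 208828 between Areg and Btc. Chromosome 5 had a median log2 fold change of 0.07 over 864 other tested genes, and the 46 within 5 Mb of Areg had a median of 0.08, while Areg and Ereg were 1.69 and 1.53 above the chromosome median. The genes next to the cluster varied in direction. Mthfd2l, a folate enzyme gene just before Epgn, had a log2 fold change of -0.14 (edgeR adjusted p = 0.678), and Parm1, which follows Btc, rose from 18.5 to 47.5 CPM (log2 fold change 1.36, edgeR adjusted p = 0.0001). Of the chemokine genes upstream, Cxcl5 rose by 2.64 on the log2 scale and Ppbp fell by 3.52 (edgeR adjusted p = 0.000121 and 0.000562).

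**Figure D3:**
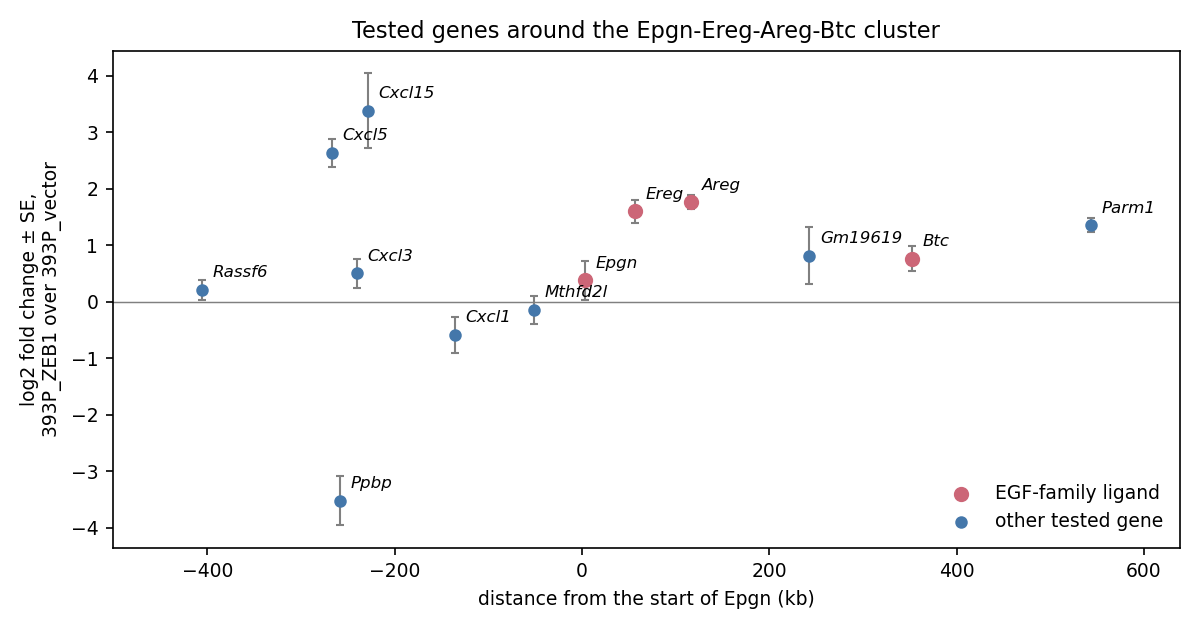
Log2 fold change of tested genes along chromosome 5 by distance from the start of Epgn in kilobases, with bars for the SE. Ereg and Areg sit at 1.60 and 1.77, Btc at 0.76 and Epgn at 0.38, and the flanking genes lie on both sides of 0, between Ppbp at -3.52 and Cxcl15 at 3.39.

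Hbegf, on chromosome 18, encodes heparin-binding EGF-like growth factor, a ligand of EGFR and ERBB4. It was at 262, 283 and 238 CPM in 393P_vector and at 473, 493 and 498 CPM in 393P_ZEB1. The groups were far apart, and the ZEB1 samples differed little from each other. Hbegf rose 1.87-fold (log2 fold change 0.90, SE 0.11, edgeR adjusted p = 0.000405). Chromosome 18 as a whole was higher in 393P_ZEB1, with a median of 0.64 over 395 other tested genes, of which 64.3% rose. Hbegf was 0.27 above that median and ranked 120th on the chromosome, and its change and that of the chromosome cannot be told apart.

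Tgfa (chromosome 6, 86195251 to 86275449, plus strand) encodes transforming growth factor alpha, a classical ligand of EGFR. It was at 78.1, 76.1 and 81.7 CPM in 393P_vector and at 48.3, 50.8 and 50.9 CPM in 393P_ZEB1. Every ZEB1 sample was below every vector sample, and within each group the samples were close together. Tgfa fell 1.57-fold (log2 fold change -0.65, SE 0.10, edgeR adjusted p = 0.00131). Chromosome 6 was shifted downwards, with a median of -0.36 over 669 other tested genes, of which 35.3% fell. Tgfa differed from that median by -0.30, and its change and that of the chromosome cannot be told apart.

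Nrg1 (chromosome 8, 31818028 to 31918203, minus strand) encodes neuregulin 1, a ligand of ERBB3 and ERBB4. It was at 13.4, 13.1 and 18.9 CPM in 393P_vector and at 1.23, 2.07 and 1.64 CPM in 393P_ZEB1, from 758, 768 and 1573 counts and from 66, 115 and 100 counts. The groups were widely separated. Nrg1 fell 9.17-fold (log2 fold change -3.20, SE 0.25, edgeR adjusted p = 4.82e-05). Of 9 exons, 7 had more than 10 reads in each vector sample and 1, 2 and 2 in the ZEB1 samples. The counted model is 1 transcript that covers 9.4% of the span of Nrg1 in GENCODE M21, which lists 12 coding transcripts, so forms that start upstream were counted only where they share its exons. The 743 other tested genes of chromosome 8 had a median of -0.05. Both Nrg1 and the receptor of its protein, Erbb3, were thus lower in 393P_ZEB1.

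**Figure D4:**
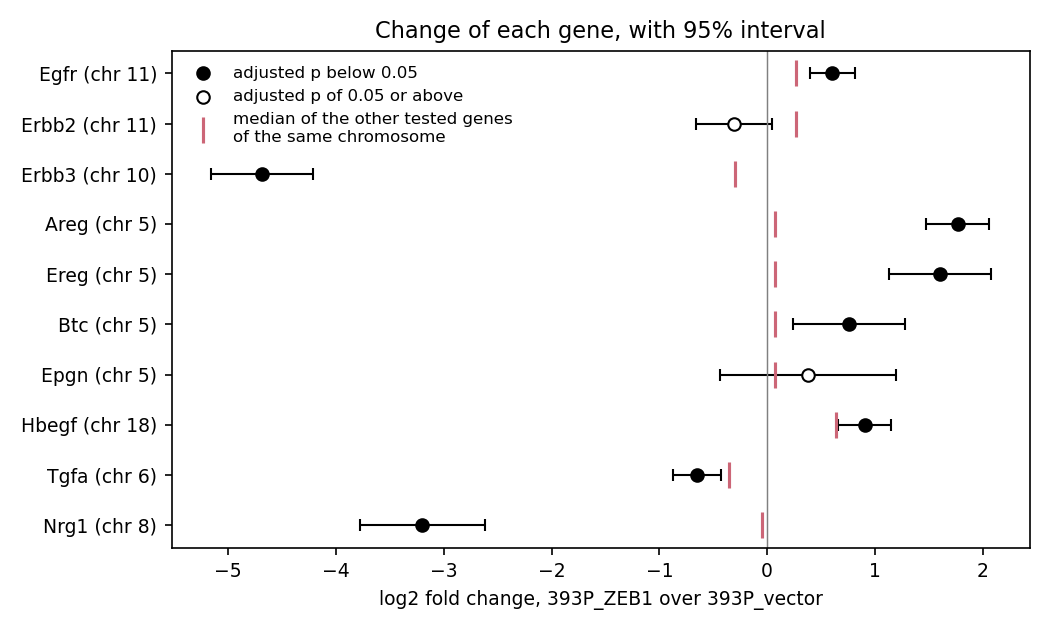
Log2 fold change of each of the 10 genes (point) with its 95% interval (bar). A filled point passed the edgeR test, an open point did not, and the red tick is the median of the other tested genes on the same chromosome. The points of Erbb3, Nrg1, Areg and Ereg lie far from their ticks, and those of Egfr, Hbegf and Tgfa lie within 0.34 of theirs.

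Per kilobase of exon, Hbegf and Areg were the most abundant of the 10 transcripts in both groups, and the order below them changed. In 393P_vector, Hbegf was at 110 and Areg at 60.0 CPM per kilobase, followed by Tgfa at 18.6, Ereg at 18.3, Btc at 12.4, Nrg1 at 7.22 and Epgn at 0.274. Tgfa and Ereg overlapped between samples, and so did Ereg and Btc. Within each vector sample Ereg was above Btc, at 16.3 and 10.6, 14.6 and 9.49, and 23.9 and 17.1 CPM per kilobase. In 393P_ZEB1, Hbegf and Areg were at 206 and 204 CPM per kilobase and overlapped, followed by Ereg at 55.5, Btc at 21.0, Tgfa at 11.8, Nrg1 at 0.787 and Epgn at 0.358. The ligands summed to 227 ± 8.52 CPM per kilobase in 393P_vector and 500 ± 20.7 in 393P_ZEB1 (SD, n = 3), and the groups did not overlap. The share of Areg in that sum went from 26.4% ± 1.37 to 40.8% ± 2.95, that of Tgfa from 8.21% ± 0.212 to 2.37% ± 0.131, and that of Nrg1 from 3.17% ± 0.575 to 0.158% ± 0.0456. Hbegf had a share of 48.6% ± 5.47 in 393P_vector and 41.3% ± 2.10 in 393P_ZEB1, and the samples overlapped. Between ligands of the same receptor, the ratio of Hbegf to Tgfa was 5.97, 6.62 and 5.18 in 393P_vector and 17.5, 17.3 and 17.4 in 393P_ZEB1. The chromosome of Hbegf had a median log2 fold change of 0.64 and that of Tgfa one of -0.36. The change of this ratio and those of the chromosomes cannot be told apart. The ratio of Areg to Ereg overlapped, at 3.48, 3.93 and 2.76 in 393P_vector against 3.22, 3.36 and 4.62 in 393P_ZEB1, and ZEB1 replicate 3 was above every vector sample.

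The microRNAs of the miR-200 family are known targets of ZEB1 and bind mRNAs through bases 2 to 8, the seed. Of their 5 hairpin rows, Mir200c had 78, 70 and 125 counts in 393P_vector and 1, 0 and 0 counts in 393P_ZEB1. Mir200b had 29, 26 and 54 counts in 393P_vector and 0 in each ZEB1 sample. Mir200a (8, 5 and 15 counts) and Mir429 (9, 8 and 13 counts) also had 0 in each ZEB1 sample, and Mir141 had 0 counts in each vector sample and 1, 0 and 0 in 393P_ZEB1. Mir200a, Mir429 and Mir141 were too low to be tested. Counts of total RNA on a hairpin do not measure the mature microRNA. The mature sequences are shown from RefSeq (GRCm38.p6), 5′ to 3′, with the seed in capitals, grouped by the seeds AAUACUG and AACACUG.
miR-200b-3p: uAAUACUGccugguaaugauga
miR-200c-3p: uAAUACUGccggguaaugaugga
miR-429-3p: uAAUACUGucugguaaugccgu
miR-200a-3p: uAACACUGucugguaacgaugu
miR-141-3p: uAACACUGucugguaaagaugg
The letters that pair with these seeds are CAGTATT and CAGTGTT. They were searched on the sense strand of 3′ UTRs from GENCODE M21 (GRCm38), taking for each gene its longest coding transcript, a search added after the levels were known. Egfr, Btc, Tgfa and Nrg1 held a match, and Erbb2, Erbb3, Areg, Ereg, Epgn and Hbegf held none. Among 11979 tested genes with a 3′ UTR, 15.8% held CAGTATT, 21.0% held CAGTGTT and 30.5% held either. In the matches the seed-matched bases are in capitals and the coordinates are those of these 7 bases.
Egfr, chr11:16912629-16912635, plus strand: aaaaaaccCAGTATTaagtatta
Egfr, chr11:16912688-16912694, plus strand: caaaccatCAGTATTgtgaccaa
Egfr, chr11:16912522-16912528, plus strand: tagtttacCAGTGTTttctatta
Btc, chr5:91358077-91358083, minus strand: catttggtCAGTATTctatagaa
Btc, chr5:91357896-91357902, minus strand: ttctagcaCAGTGTTtataagta
Tgfa, chr6:86275352-86275358, plus strand: caaagacaCAGTGTTgcacgcac
Nrg1, chr8:31817836-31817842, minus strand: attttttaCAGTATTtcaaaaaa
Nrg1, chr8:31817741-31817747, minus strand: ctttttcaCAGTATTtcagcgaa
Nrg1, chr8:31816005-31816011, minus strand: tgacttccCAGTGTTgcagagag
The 3 matches in Nrg1 lie outside its counted interval, which holds 0% of that 3′ UTR, and the counted interval of Egfr holds 32.6% of its 3′ UTR, with all 3 matches. Of the 4 genes with a match, Egfr and Btc rose and Tgfa and Nrg1 fell. Of the genes without a match, Areg, Ereg and Hbegf rose, Erbb3 fell, and Erbb2 and Epgn did not pass. The 3′ UTRs searched for Areg and Ereg are 253 and 3501 bases long. A match is a description of the sequence and no test of it was made.

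The remaining genes of both families were low in these cells. Erbb4, the other neuregulin receptor, had at most 0.0720 CPM in any sample, and Nrg3 and Nrg4 at most 0.131 and 0.053 CPM. These 3 genes did not pass the filter on low counts. Egf, the founding ligand, was at 0.819 ± 0.241 CPM in 393P_vector and 0.619 ± 0.0464 in 393P_ZEB1 (SD, n = 3), with a log2 fold change of -0.40 and an edgeR adjusted p of 0.286. Nrg2, a neuregulin on chromosome 18, was at 2.46, 2.28 and 2.15 CPM in 393P_vector and at 0.878, 0.738 and 0.557 CPM in 393P_ZEB1. The groups did not overlap, and Nrg2 fell 3.17-fold (log2 fold change -1.66, SE 0.22, edgeR adjusted p = 0.000869), against the upward shift of its chromosome.

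The other genes of the pathway were counted in lists chosen by function, beside the 37.6% of all tested genes that changed. Of 4 genes for ligand shedding, 1 rose and 0 fell. It was Adam10, a sheddase of betacellulin among others, at 150, 126 and 129 CPM in 393P_vector and 248, 196 and 170 CPM in 393P_ZEB1 (log2 fold change 0.60, edgeR adjusted p = 0.0188). Adam17, the main sheddase of amphiregulin, HB-EGF and TGF-alpha, was at 93.2 ± 2.54 and 107 ± 3.34 CPM (SD, n = 3), with a log2 fold change of 0.20 and an edgeR adjusted p of 0.119. Of 12 inhibitors of the receptors, 2 rose and 3 fell, which is 41.7%. The ubiquitin ligase gene Cblb rose from 79.0 to 160 CPM (log2 fold change 1.02) and Socs5 rose from 161 to 255 CPM. Cblc, its epithelial relative, fell from 5.43 to 0.112 CPM (log2 fold change -5.58), and the phosphatase gene Ptprj fell by 0.54 on the log2 scale. Cblc was at 8.81 CPM in vector replicate 3 and at 3.75 and 3.74 CPM in replicates 1 and 2.

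Of 27 adaptors and kinases of the cascade, 8 rose and 5 fell, or 48.1%, and their median log2 fold change was 0.04. Mapk3, which encodes the kinase ERK1, rose from 64.7 to 135 CPM (log2 fold change 1.06), and the adaptor gene Shc1 rose from 142 to 246 CPM. Pik3cb and Pik3r3, a catalytic and a regulatory subunit of PI3-kinase, fell by 0.61 and 0.59. Of 15 feedback and output genes of the MAPK cascade, 4 rose and 3 fell, or 46.7%. Without vector replicate 3 these counts were 7 and 4, or 73.3%, and 53% of all tested genes passed in that setting. Egr1, an immediate early transcription factor gene, and Spry4, a Sprouty inhibitor of the cascade, rose by 2.36 and 2.24 on the log2 scale. Both are on chromosome 18, whose median was 0.64. Another Sprouty gene, Spry1, fell from 19.0 to 3.32 CPM (log2 fold change -2.52), and Phlda1 fell from 17.1 to 6.25 CPM. Members of the list thus went in both directions.

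Of 14 adaptors of receptor endocytosis and endosomal sorting, 4 rose and 3 fell, or 50%. Sh3kbp1, which encodes the CBL-binding adaptor CIN85, rose from 95.2 to 231 CPM (log2 fold change 1.28), and the related Cd2ap fell from 259 to 156 CPM (log2 fold change -0.73). Within the epsins, Epn2 rose from 107 to 231 CPM and Epn3 fell from 58.3 to 29.1 CPM. Each gene of these lists said to have risen or fallen passed edgeR's quasi-likelihood test.

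**Figure D5:**
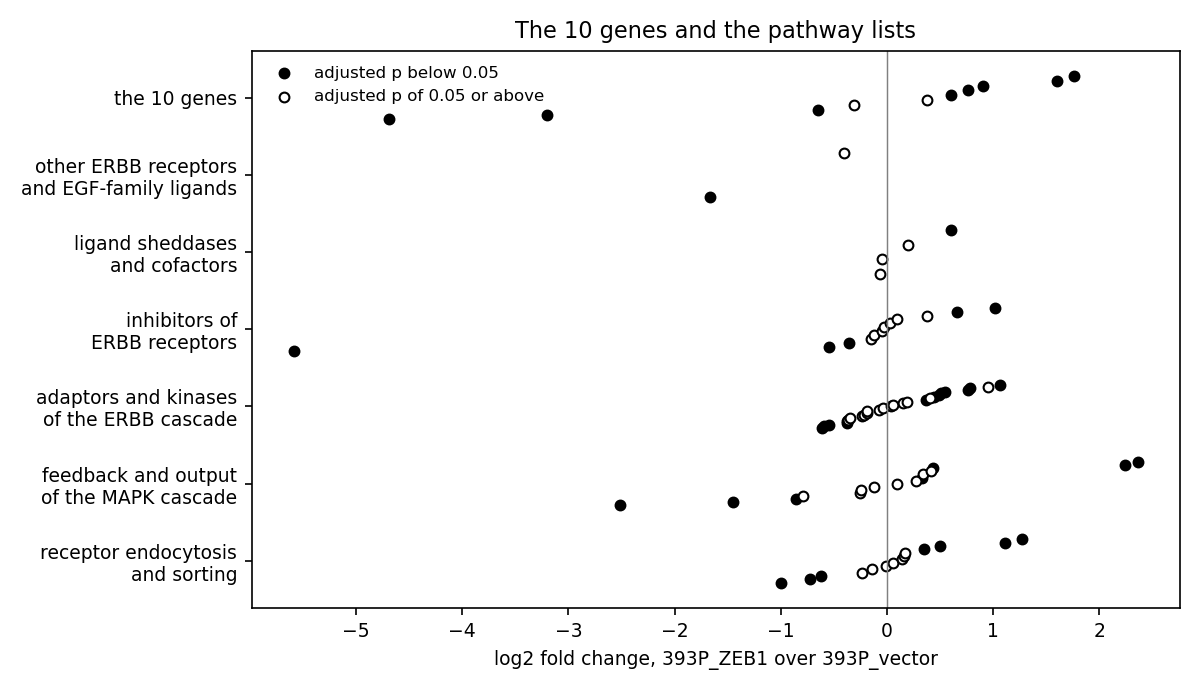
Log2 fold change of the 10 genes and of the tested genes of each pathway list. A point is a gene, filled where it passed the edgeR test, and the points of a list are spread vertically in order of their value. The lists are centred near 0, with medians between -0.04 and 0.10 for the lists of 4 or more genes other than the 10, while Erbb3 at -4.69, Nrg1 at -3.20 and Cblc at -5.58 lie far to the left.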

How the data were processed

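RNA sequencing libraries were made with the SOLiD total RNA-seq kit. For each sample the authors deposited the unnormalized count of reads per RefSeq feature, with its coordinates, its exon length and the number of exons with more than 10 reads. They also deposited an RPKM per feature, the count scaled by exon length and sequencing depth, which was not used. The aligner and counting program are not given in the sources used here. Coordinates matched GRCm38. The transfectants are described by the labels.

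Counts were analysed in R 4.3.3 with edgeR 4.0.16 (filterByExpr with a minimum count of 10, TMM, robust quasi-likelihood fit on condition alone, all 6 samples). The Benjamini-Hochberg adjustment was made over 13892 genes, with a threshold of 0.05. An SE was the log2 fold change over the root of its F statistic, and 95% intervals were that SE times the t quantile at the degrees of freedom of each gene's quasi-likelihood test. Single genes were also compared by exact permutation of log2 CPM. The code was tested on simulated counts. Alternatives used limma 3.58.1, DESeq2 1.42.0, other scalings and filters, and each sample left out. Figures used matplotlib 3.10.9 in Python 3.11.15.

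The 10 genes and the lists were chosen with earlier results of these data known. Within a list, the genes named were the 2 largest rises and 2 largest falls among those that passed with fully separated groups. Adam17, and the genes beside the chromosome 5 ligands, were named after their values were seen. Hras was matched under its older symbol Hras1. Medians over a chromosome or within 5 Mb leave out all 10 genes, and CPM per kilobase used the deposited exon length.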

Additional observations from a re-analysis of the deposited data

How the results depend on the processing

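Over 14 alternatives, 9 of the 10 genes kept their direction and their side of the threshold, and Btc lost its call in 6 while it stayed higher. Log2 fold changes ranged from 0.59 to 0.62 for Egfr, -0.44 to -0.20 for Erbb2, -4.88 to -4.56 for Erbb3, 1.70 to 1.86 for Areg, 1.47 to 1.85 for Ereg, 0.60 to 1.06 for Btc, 0.13 to 0.61 for Epgn, 0.84 to 0.97 for Hbegf, -0.67 to -0.62 for Tgfa and -3.39 to -2.94 for Nrg1. The number of genes past the threshold was 5218, and 8071 with limma voom and sample weights, 2199 in edgeR's test against a fold change of 1.5 and 3129 at an adjusted p of 0.01. With a sample left out it was between 3645 (without ZEB1 replicate 3) and 7476 (without vector replicate 3). The fold change test left 3 genes of the 10 higher in place of 5, and 2 lower in place of 3. Egfr, Btc and Tgfa lost their calls in it.

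The replicate numbers of the groups are alike, but deviations of same-numbered samples correlated with r of 0.279, -0.205 and -0.0377, so the numbers were not taken to pair the samples. With the replicate block, 5 of the 10 genes rose and 3 fell, with no call changed, and 4436 genes passed. The pathway lists were also counted without vector replicate 3, an alternative chosen after seeing the data. Passing genes went from 7 to 11 in the MAPK feedback and output list and from 1 to 2 in the sheddase list. They went from 5 to 6 among the inhibitors, 13 to 15 among the adaptors and kinases and 7 to 8 in the endocytosis list. Across all tested genes the share that passed went from 37.6% to 53%. The cause was not tested for any of these. Epgn rests on 18 to 43 counts per sample.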
